A study of Mus musculus with 72 samples.

Results

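The reporters described here are 543 integrations on chromosomes 1 to 19. In each, the ratio of RNA share to DNA share differed between the 2 cultures of its pool. The 543 were chosen from 17857 listed integrations, of which 17500 lay on chromosomes 1 to 19. Of these, 14449 had at least 100 RNA reads over both cultures and are called well read, and members were those well-read integrations whose log2 ratio of RNA share to DNA share differed by at least 1.5 (2.83-fold) between the cultures. The members made up 3.76% of the well-read integrations, a share that depends on the threshold of the rule. The rule used the RNA and DNA counts of both cultures, so all values made from those counts are given as a description, without a test. The other 13906 well-read integrations serve as the comparison.

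The data come from TRIP, an assay in which many copies of a reporter gene, each tagged with its own random DNA barcode, are put into the genome and read in parallel. The host was EBRTcH3, a line of mouse embryonic stem cells in which the ROSA26 promoter drives a tetracycline-controlled transactivator, grown with leukemia inhibitory factor, the MEK inhibitor PD0325901 and the GSK-3 inhibitor CHIR99021. All 6 pools, mPGK-A to mPGK-F, carried the mouse PGK promoter construct in a piggyBac transposon and came from cells sorted for low eGFP, so no pool is an untreated control. Sorted cells grew for 5 days, and each small pool taken from them grew for 7 days. It was then split into 2 cultures, replicate 1 and replicate 2, that were kept apart for 7 more days before RNA and DNA were taken. The replicates are thus technical, and an integration has 1 RNA and 1 DNA count per culture. A culture had 2880244 to 3508366 RNA reads and 3386477 to 3693449 DNA reads in total over the barcodes of its pool.

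A reporter's barcode is present in the genomic DNA of every cell that descends from the cell it landed in, so its share of the DNA reads of a pool stands for the size of that clone, and its share of the RNA reads for clone size and output together. Dividing the RNA share by the DNA share gives output per copy, which in this assay depends on the surrounding chromatin, a property known as the position effect. A change of clone size between cultures moves the shares of RNA and DNA together and cancels in the ratio. A difference in the ratio therefore needs a shift in the RNA share, the DNA share or both, and the sections below separate them.

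The barcodes of 8 members are shown because each is the tag by which its reads were counted. They are the 4 largest differences among members whose RNA share alone differed 2-fold or more between cultures and the 4 largest among those whose DNA share alone did. Positions are those of mm9 as listed, and barcodes are printed in lower case because no part of them is singled out.
mPGK-B, chromosome 14, 8972513, minus strand, RNA alone: cttgcttacaacgtga
mPGK-C, chromosome 13, 84839458, minus strand, RNA alone: gacgatgataaaaatc
mPGK-B, chromosome 15, 93348889, plus strand, RNA alone: ttcataatttcactgt
mPGK-C, chromosome 5, 101324087, plus strand, RNA alone: agataccgaattaggg
mPGK-B, chromosome 9, 115511197, plus strand, DNA alone: tataaacacaataata
mPGK-F, chromosome 11, 105815118, minus strand, DNA alone: ttcattcacctcaacg
mPGK-E, chromosome 14, 20637341, minus strand, DNA alone: gcttgtcctgcaatgt
mPGK-A, chromosome 16, 91943105, minus strand, DNA alone: cagacgaatcatccct

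In most members only 1 of the shares had moved 2-fold or more, and which share it was more often depended on the depth required. The DNA share alone differed 2-fold or more (1 log2 unit) between cultures in 261 members (48.1%, 95% Wilson interval 43.9% to 52.3%), and the RNA share alone in 195 members (35.9%, 32.0% to 40.0%). Both differed 2-fold or more in 27 members, and neither did in 60. When each member was classed by the larger of its shifts, the DNA share had moved more in 305 members (56.2%) and the RNA share in 238 (43.8%, 39.7% to 48.0%). That order turned without the 10% of integrations with the fewest DNA reads, where the RNA share had moved more in 55.7% of 343 members, while with at least 300 RNA reads it had in 13.6% of 214. The intervals treat integrations as independent draws and cover neither the error of the read counts nor differences between pools. Among all well-read integrations, members included, the DNA share differed 2-fold or more in 5.93% and the RNA share in 4.15%. Shifts of DNA were thus also the more frequent ones over this whole set.

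**Figure D1:**
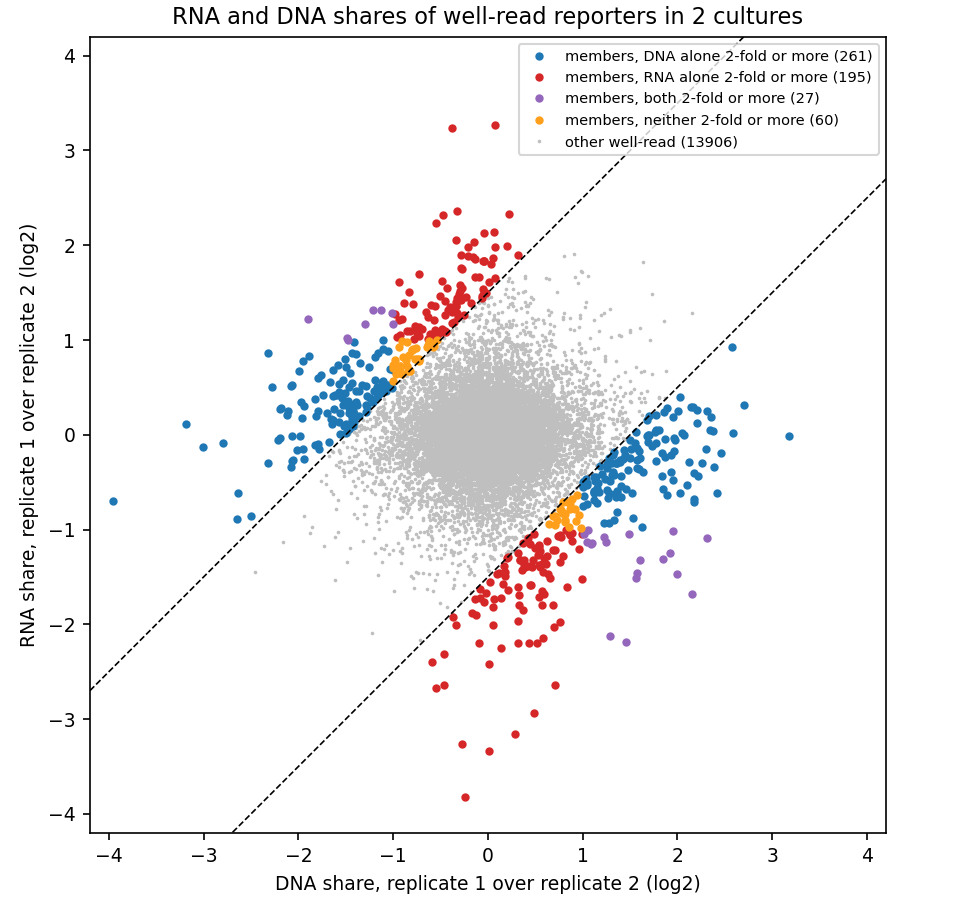
Log2 ratio of the DNA share (x axis) and of the RNA share (y axis), replicate 1 over replicate 2, for 543 members (coloured by the share that moved 2-fold or more) and 13906 other well-read integrations (grey); the dashed lines mark a difference of 1.5. Members lie in blue arms to the left and right (261, DNA alone) and red arms above and below (195, RNA alone), with 27 purple points where both moved and 60 orange points where neither did.

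The shares of RNA and DNA did not move together. Across the 14449 well-read integrations the shift of the RNA share and that of the DNA share had a Pearson r of 0.024, and between -0.0093 in mPGK-C and 0.047 in mPGK-F within pools. These points share the totals of their pool, and the SD was 0.451 for the RNA shift and 0.513 for the DNA shift on the log2 scale. Of the 857 well-read integrations whose DNA share differed 2-fold or more, the RNA share was shifted by a median of 0.036 in the same direction (middle 50% from -0.25 to 0.33), and in 39 of them it had also moved 2-fold the same way. None of those 39 was a member, since equal shifts cancel in the ratio. Members made up 288 of the 857, and in 46 of these 288 the shifts had the same sign. The rule favours opposite signs: of all 543 members, 471 (86.7%) had RNA and DNA shifts of opposite sign, against 48.2% of the other well-read integrations, and in the 27 members where both moved 2-fold they were opposite in every case.

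In the members with the RNA share alone moved, the DNA share stayed within 2-fold while the RNA share differed more. At 84839458 on chromosome 13 (mPGK-C), 7 RNA reads were counted in replicate 1 and 100 in replicate 2, with 673 and 814 DNA reads. Its level, the log2 ratio relative to the pool median, was -5.08 in replicate 1 and -1.496 in replicate 2, a difference of -3.58. Its RNA share was thus 14.1-fold apart and its DNA share 1.18-fold.

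The reporter at 8972513 on chromosome 14 (mPGK-B) went the other way, with 108 RNA reads in replicate 1 and 13 in replicate 2, and 189 and 256 DNA reads. It had the largest difference of this kind, 3.62 or 12.3-fold, and 6 other integrations lay within 100 kb of it. That at 93348889 on chromosome 15 (mPGK-B) had 9 and 99 RNA reads and 799 and 682 DNA reads. That at 101324087 on chromosome 5 (mPGK-C) had 12 and 90 RNA reads and 693 and 507 DNA reads. In these 4 reporters, the RNA count was low in 1 culture, at 7 to 13 reads. Over all 195 members of this kind, the RNA shift had a median size of 1.45 on the log2 scale and the DNA shift one of 0.42, and the smaller RNA count of the pair had a median of 40 reads. Of the 195, 96 were higher in replicate 1 and 99 in replicate 2. Replicate numbers do not link the cultures of different pools, so these are counts only.

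In the members with the DNA share alone moved, the RNA share stayed within 2-fold while the DNA share differed more. At 20637341 on chromosome 14 (mPGK-E), RNA reads were 193 in replicate 1 and 202 in replicate 2, and DNA reads were 455 and 50. Its level was 0.34 in replicate 1 and 3.53 in replicate 2, and the difference of -3.20 went with a 1.01-fold difference in RNA share and a 9.08-fold difference in DNA share. The reporter at 115511197 on chromosome 9 (mPGK-B) had 107 and 116 RNA reads and 47 and 443 DNA reads, the largest difference of this kind at 3.30. Again RNA was alike, 1.09-fold apart in share, and DNA was not.

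The largest DNA shift of any well-read integration was that at 105815118 on chromosome 11 (mPGK-F), with 21 DNA reads in replicate 1 and 334 in replicate 2 (15.5-fold in share), and 700 and 1142 RNA reads. Its level of 6.43 in replicate 1 and 3.18 in replicate 2 placed it far above its pool median in both. At 91943105 on chromosome 16 (mPGK-A), DNA reads were 170 and 873 and RNA reads 454 and 252, so that RNA was higher in the culture where DNA was lower. Over the 261 members of this kind, the median size of the DNA shift was 1.51 and that of the RNA shift 0.35, and the smaller DNA count had a median of 134 reads. Of the 261, 130 were higher in replicate 1 and 131 in replicate 2, again counts only.

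**Figure D2:**
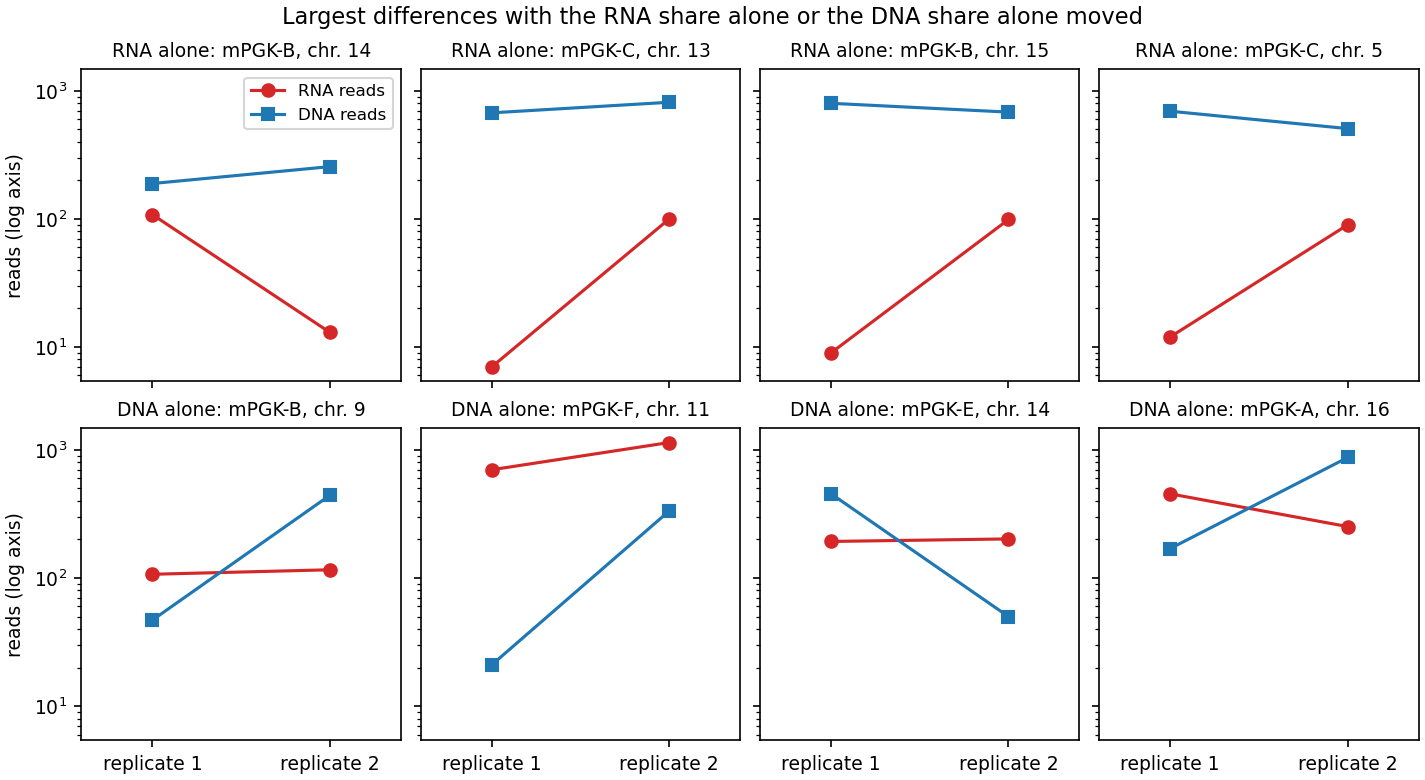
RNA reads (red circles) and DNA reads (blue squares) on a log axis in replicate 1 and replicate 2 of the 8 members listed by barcode, with the RNA share alone moved (top) or the DNA share alone moved (bottom). In the top row the DNA lines are nearly flat while RNA differs, as 7 and 100 reads on chromosome 13, and in the bottom row DNA differs more, as 455 and 50 reads on chromosome 14.

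The 2 largest differences of all came from members in which both shares moved, in opposite directions. The largest was at 158266347 on chromosome 2 (mPGK-C, minus strand), with 40 RNA reads in replicate 1 and 122 in replicate 2 and with 376 and 87 DNA reads, a difference of -3.82 or 14.2-fold. That at 8458787 on chromosome 17 (mPGK-C) had 24 and 105 RNA reads and 126 and 47 DNA reads, and that at 72848978 on chromosome 17 (mPGK-B) had 50 and 164 RNA reads and 477 and 124 DNA reads. All 3 were higher in replicate 2, as were 19 of the 27 members of this kind, against 8 higher in replicate 1. These too are counts only, since replicate numbers do not link the cultures of different pools. The 27 members had a median difference of 2.53, above the 1.82 over all members. In the 60 members where neither share moved 2-fold, moderate opposite shifts added up to a median difference of 1.61. The one with the most RNA reads, at 31097860 on chromosome 6 (mPGK-B), had 610 and 1193 RNA reads and 817 and 464 DNA reads.

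Most members lay near the threshold. The difference was below 2 (4-fold) in 359 of the 543, at least 2 in 184, at least 2.5 in 59 and at least 3 (8-fold) in 22. Just inside were 3 members of mPGK-B at 33684899 on chromosome 3 and 50684185 on chromosome 2, each with a difference of -1.503, and at 121398494 on chromosome 1, with one of -1.504. Just outside were integrations at 120261485 on chromosome 4 (mPGK-B, -1.499), 60465082 on chromosome 9 (mPGK-B, -1.496) and 28579614 on chromosome 6 (mPGK-C, -1.496). Counting error from the 4 read counts had a median of 0.25 log2 units in members and 0.13 in other well-read integrations. PCR reads are not independent molecules, so this error is a lower limit.

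By level, which is made from the same RNA and DNA counts as the shifts, the kinds of members lay on opposite sides of the other integrations. The level is thus not independent of the kind. Members in which the RNA share moved more had a median level of -1.30 (middle 50% from -2.29 to -0.22), members in which the DNA share moved more had one of 1.03 (0.06 to 2.32), and the other well-read integrations had one of 0.53 (-0.73 to 1.78). Above the pool median lay 19.3% of the members with the larger RNA shift, 76.4% of those with the larger DNA shift and 60.9% of the others. The same division held at the extremes. All 15 members more than 16-fold above the pool median had only their DNA share moved 2-fold, and all 7 members more than 16-fold below it had only their RNA share moved. They were 2.76% and 1.29% of the members, and 3.01% and 0.223% of the other well-read integrations lay as far above and below. Over all members the median level was 0.05 (middle 50% from -1.14 to 1.30).

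**Figure D3:**
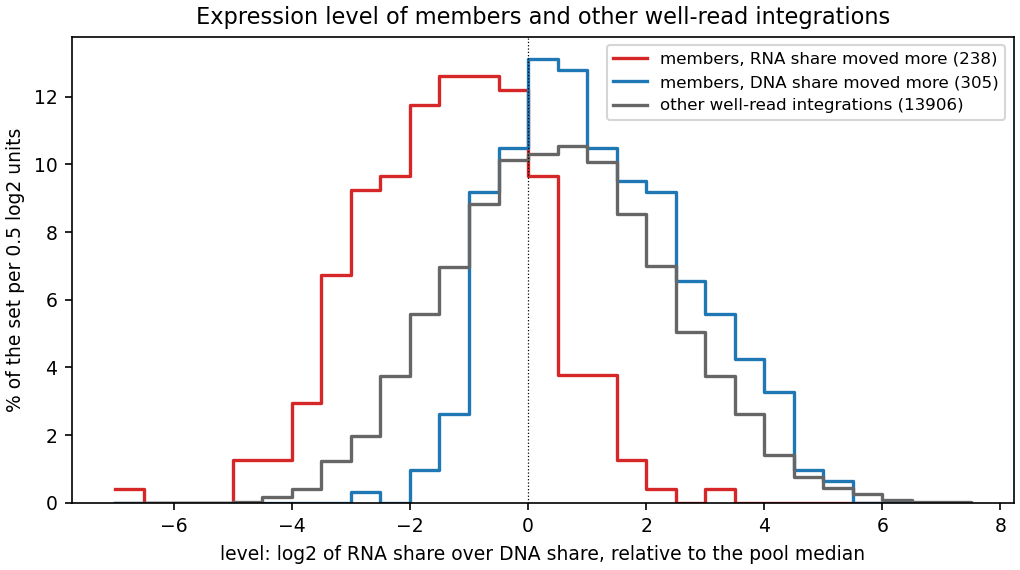
Share of each set (y axis, % per 0.5 log2 units) by level (x axis, log2 of RNA share over DNA share relative to the pool median) for 238 members whose RNA share moved more (red), 305 whose DNA share moved more (blue) and 13906 other well-read integrations (grey). The red curve lies left of the grey curve (medians -1.30 and 0.53) and the blue curve to its right (median 1.03).

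The contrast in level went with the depth of the counts. In members with the RNA share alone moved, the median was 158 RNA reads and 1173 DNA reads over both cultures. In members with the DNA share alone moved it was 385 RNA reads and 560 DNA reads, and in other well-read integrations 867 and 1960. Members of both kinds thus had fewer RNA and DNA reads than the others, and the kind with fewer RNA reads was the one whose RNA share moved. The part of depth in the difference between cultures was not tested beyond the classes given next, since both counts enter the rule.

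The share of members was highest where reads were few. Of the decile of well-read integrations with the fewest RNA reads (100 to 171), 12.5% were members (95% Wilson interval 10.9% to 14.3%), and of the decile with the most RNA reads, 0.138% (0.038% to 0.503%). Members with the larger RNA shift were found in the lower deciles of RNA reads: 129 and 67 of the 238 in the lowest and next decile, and none in the 4 highest. Members with the larger DNA shift were spread more widely, with 52, 53, 55 and 50 in the 4 lowest deciles and 2 in the highest. The SD of the RNA shift was 0.81 in the lowest decile and 0.18 in the highest, where counting error alone had medians of 0.26 and 0.029.

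Small clones gave the mirror image. Of the decile with the smallest DNA share (up to 78.9 ppm of the DNA reads), 13.8% were members (12.1% to 15.6%), 152 with the larger DNA shift and 47 with the larger RNA shift. In the 2 deciles with the largest DNA share, there were 5 and 8 members, and the RNA share had moved more in each of them. The SD of the DNA shift was 0.89 in the decile with the smallest share and 0.23 in that with the largest, and counting error had medians of 0.15 and 0.034. By level, the share of members was 6.09% in the lowest decile, nearly all with the larger RNA shift (86 of 88), and 3.53% in the highest, nearly all with the larger DNA shift (50 of 51).

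**Figure D4:**
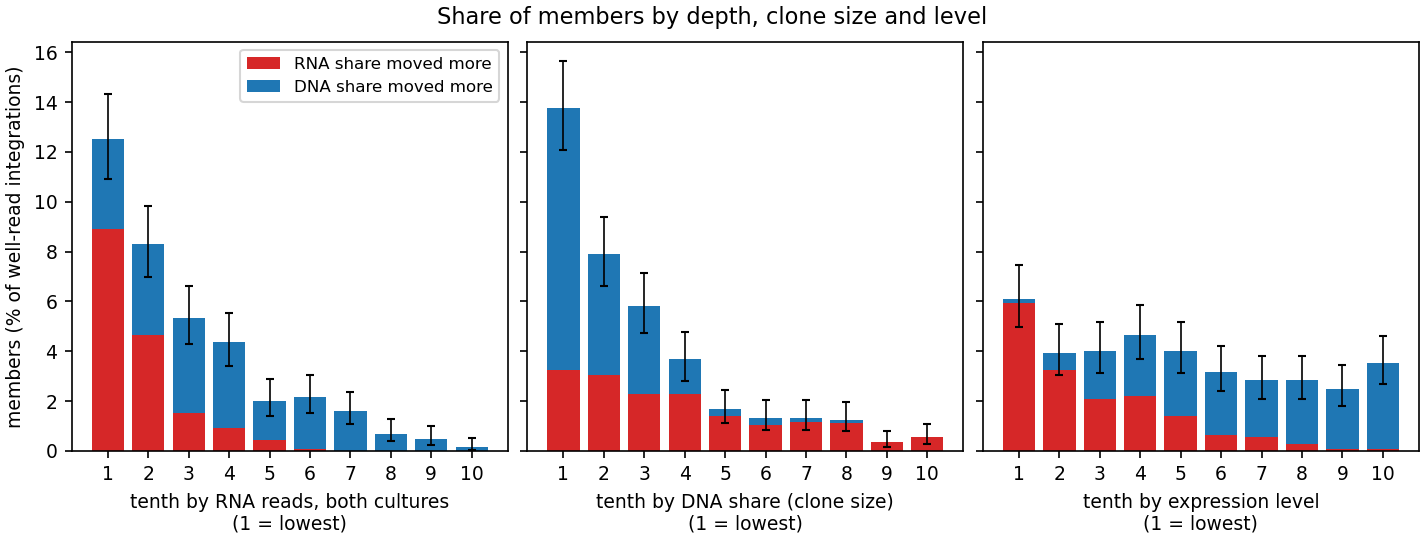
Percent of well-read integrations that are members (y axis) per decile by RNA reads, DNA share and level (x axis, 1 the lowest), divided into members whose RNA share (red) or DNA share (blue) moved more; error bars are 95% Wilson intervals of the total. The share of members falls from left to right with RNA reads (12.5% in the lowest decile, 0.138% in the highest) and with DNA share (13.8% in the lowest), and by level red gives way to blue.

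Where both counts were high, members were rare. Among the 4767 integrations with at least 1000 RNA and 1600 DNA reads over both cultures there was 1 member (0.021%, Wilson interval 0.0037% to 0.119%), and the SD of the difference was 0.405. Among 650 with as many DNA reads but 100 to under 200 RNA reads, 51 were members (7.85%). Among 91 with at least 1000 RNA reads but fewer than 400 DNA reads, 11 were (12.1%). With both counts low (100 to under 200 RNA and under 400 DNA reads) the share was 17.3%, 37 of 214. A low count of either kind thus went with a higher share of members. Of the 3051 integrations under 100 RNA reads, which the rule leaves out, 1115 (36.5%) differed by 1.5 or more, and of all 17500 integrations 1658 (9.47%) did.

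The 4 members with the most RNA reads lay far above their pool median, with DNA shares of 62.0 to 184 ppm, against a median of 275 ppm in other well-read integrations. The reporter at 71197498 on chromosome 17 (mPGK-A) had 3090 RNA reads in replicate 1 and 3838 in replicate 2 with 403 and 163 DNA reads, and its level was 4.48 in replicate 1 and 6.12 in replicate 2. That at 53120077 on chromosome 11 (mPGK-D) had 2971 and 3139 RNA reads and 991 and 302 DNA reads. Those at 6010309 on chromosome 19 and 47688974 on chromosome 17 (both mPGK-B) had 1909 and 1964, and 1660 and 1750 RNA reads. In all 4 the RNA counts were close, and the DNA share alone was 2.55-fold to 3.39-fold apart.

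The 4 members in the largest clones had little RNA for their size. At 43238978 on chromosome 12 (mPGK-C), 22817 DNA reads in replicate 1 and 18257 in replicate 2 stood beside 43 and 110 RNA reads. Its DNA share averaged 5712 ppm, against a median of 101 in members and 275 in other well-read integrations, and its level was -7.63 and -5.85. At 55561974 on chromosome 11 (mPGK-E), DNA reads were 11340 and 8725 and RNA reads 108 and 248. That at 184262240 on chromosome 1 (mPGK-B) had 3770 and 4650 DNA reads with 74 and 36 RNA reads, and that at 33271699 on chromosome 4 (mPGK-A) had 3471 and 3147 DNA reads with 62 and 177 RNA reads. These clones were nearly equal in size in the cultures, within 1.30-fold, and stayed far below their pool median in both, while RNA differed 2.21-fold to 2.80-fold.

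Members came from every pool, and mPGK-B held the most. It had 129 members of 2564 well-read integrations (5.03%, Wilson interval 4.25% to 5.95%), and the other pools had 76 to 88 members. The share was 3.66% in mPGK-A, 3.65% in mPGK-C, 3.58% in mPGK-D, 3.41% in mPGK-E and 3.18% in mPGK-F. Without mPGK-B the share was 3.48%. The SD of the difference over all well-read integrations was also highest in mPGK-B, 0.72, against 0.64 to 0.69 in the other pools, and so was that of the RNA shift, 0.49 against 0.41 to 0.45. The RNA shift was the larger one in between 36.6% of members in mPGK-F and 49.4% in mPGK-E.

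Over all pools the numbers higher in each replicate were nearly equal, while single pools leaned one way. Because replicate numbers do not link the cultures of different pools, sums over pools, also by kind, are counts only. Of the members, 271 were higher in replicate 1 (1.88% of the well-read integrations) and 272 in replicate 2 (1.88%). In mPGK-A, 54 of 81 were higher in replicate 1, and in mPGK-B 81 of 129 were higher in replicate 2. All well-read integrations of these pools leaned the same way, with a median difference of 0.12 in mPGK-A and -0.075 in mPGK-B. With differences centred on the pool median, 44 of 79 members of mPGK-A were higher in replicate 1 and 67 of 122 members of mPGK-B in replicate 2, and 514 integrations were members under both scalings.

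**Figure D5:**
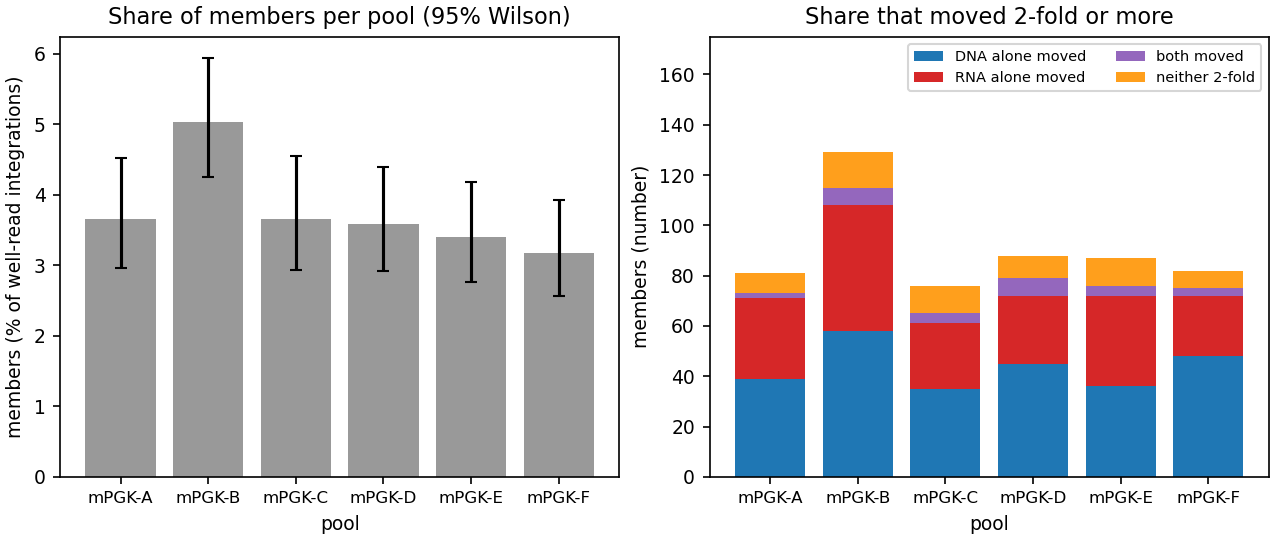
Left, percent of well-read integrations that are members (y axis) per pool (x axis) with 95% Wilson intervals; right, number of members per pool by the share that moved 2-fold or more. mPGK-B is the highest on the left (5.03%), and each pool holds both kinds.

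Members lay on each of the 19 chromosomes and were not gathered at a few places. The share of well-read integrations that were members ran from 2.33% on chromosome 3 (19 of 816) to 5.52% on chromosome 16 (30 of 543, Wilson interval 3.90% to 7.78%). Chromosome 12 followed with 5.30% and chromosome 13 with 4.93%. On 16 of the chromosomes members came from all 6 pools. No reporter was listed with the same barcode at the same position in another pool, so that no member could be measured again elsewhere. Gene annotation of the listed build was not used here, so members are given by position only.

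Few members had another member close by. Another member lay within 100 kb of 32 members (5.89%), and a member lay within 100 kb of 1066 of the other well-read integrations (7.67%). Within 20 kb there were 4 pairs of members, each from different pools. The closest was 548 bp apart on chromosome 5, at 20404829 (mPGK-E), where DNA alone had moved (54 and 54 RNA reads, 241 and 69 DNA reads), and at 20405377 (mPGK-A), with 513 and 323 RNA reads and 163 and 299 DNA reads. These neighbours differed in opposite directions, by -1.75 and 1.52. On chromosome 1, at 90353492 (mPGK-A) and 90363616 (mPGK-C), the first had moved in DNA and the second in RNA. Replicate numbers do not link the cultures of different pools.

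The number, level and culture difference of neighbours, the strand and the barcode GC content were compared within each pool. These measures do not enter the rule for an integration itself. They were tested over the 6 pools by an exact two-sided permutation of signs, whose smallest p is 0.03125. Levels and culture differences of neighbours are made from the neighbours' own counts, and a neighbour may itself be a member. Neighbours can come from other pools, so the same integrations enter the values of several pools. For the neighbour measures the 6 pool values are therefore not fully independent, as the permutation takes them to be. Members had on average 2.38 other integrations of any pool within 100 kb and the others 2.66, a difference of -0.28 ± 0.11 (SD, n = 6 pools) that was lower in 6 of 6 pools (exact permutation p = 0.03125, adjusted p = 0.052 over 5 measures). Integrations of other pools within 100 kb had a mean level of 0.063 around members and 0.30 around the others, a difference of -0.24 ± 0.11 (SD, n = 6 pools), again lower in 6 of 6 pools (exact permutation p = 0.03125, adjusted p = 0.052). Neither passed the threshold of 0.05 after adjustment, which this design could reach only if more of the 5 measures had the smallest p.

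Both differences had the opposite sign when the range of RNA reads was narrowed. With both sets limited to 100 to 500 RNA reads, members had 0.064 more neighbours than the others and a neighbour level 0.21 higher (exact permutation, adjusted p = 0.23 for both). By kind of member, neighbours from other pools averaged -0.24 ± 0.46 around members with the larger RNA shift and 0.24 ± 0.26 around members with the larger DNA shift, against 0.30 ± 0.04 around the others (SD, n = 6 pools). They had 1.96, 2.68 and 2.66 neighbours. The difference between the kinds was not tested.

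The neighbours' own difference between cultures was also compared. Well-read integrations of other pools within 100 kb differed by 0.497 log2 units on average around members and by 0.493 around the others, a difference of 0.0043 ± 0.038 (SD, n = 6 pools) that was higher in 4 of 6 pools (exact permutation, adjusted p = 0.78). Such a neighbour was present for 403 members and 10680 others. Of the members, 48.5% lay on the plus strand as a mean over pools and of the others 49.1%, a difference of -0.60 ± 5.46 percentage points (exact permutation, adjusted p = 0.78). Isolated members without any neighbour within 100 kb numbered 89 (16.4%, against 14.6% of the others), and 26 (4.79%, against 5.82%) had 7 or more neighbours.

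The barcodes themselves differed little from those of other reporters. Their GC content averaged 42.2% in members and 41.4% in the others, a difference of 0.88 ± 0.49 percentage points (SD, n = 6 pools) that was higher in 6 of 6 pools and did not pass after adjustment (exact permutation p = 0.03125, adjusted p = 0.052). With medians within pools in place of means the difference was -0.21 and higher in 0 of 6 pools, with tied medians in most pools (exact permutation, adjusted p = 1). It was 0.51 with both sets limited to 100 to 500 RNA reads (exact permutation, adjusted p = 0.31). Barcodes of 16 bases made up 98.0% of the members and 98.0% of the others, with 15 to 17 bases in all. Of the members, 39 (7.18%) carried a barcode that was also listed in another pool at another position, against 5.55% of the others. No well-read barcode was a single mismatch away from another listed barcode of its pool and length.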

How the data were processed

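Per the labels' protocols, barcodes were amplified from reverse-transcribed RNA (expression) and genomic DNA (normalization), and positions were mapped by inverse PCR. The deposited table holds 1 raw DNA count and 1 raw RNA count for each barcode, pool and replicate, per the file headers. Bowtie2 2.0 and the mm9 build are named in the submitters' processing notes. The sources used here do not say how the 2 PCRs were combined or which barcodes were kept. They also do not say whether positions start from 0, so a position may be off by 1 base.

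Counts were divided by the total of all listed barcodes of the pool and replicate, with 0.5 added to RNA reads. The log2 ratio of RNA share to DNA share was compared as replicate 1 minus replicate 2, and equals the RNA shift minus the DNA shift. The level is its mean over the replicates minus the median of the pool. Counting error is the square root of the summed reciprocal counts over ln 2. Depth per replicate sets the precision, and intervals are 95% Wilson intervals.

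A single count per culture allows no test of single integrations. Within-pool means were tested over the 6 pools by all 64 sign patterns, with Benjamini-Hochberg adjustment over 5 measures. Neighbour levels include all listed integrations of chromosomes 1 to 19 and other pools. Neighbour differences use the well-read ones. The calculations were tested on simulated data, with changes planted only in integrations of at least 1000 RNA reads. Members had a median of 228 RNA reads, so planted changes were not tried at the depth of most members. Named integrations are the largest differences of each kind (4, 4 and 3), the 3 with the most reads where neither share moved, the 4 with the most RNA reads, the 4 with the highest DNA share, 3 on each side of the threshold, and pairs within 20 kb. Members, measures and this rule were chosen with earlier results of these data known. Alternatives concerned the pseudocount, thresholds, scaling, distance and pools. Mapping libraries enter only through positions. Python 3.11.15, numpy 2.4.6, pandas 2.3.3, scipy 1.17.1 and matplotlib 3.10.9 were used.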

Additional observations from a re-analysis of the deposited data

Results flagged for a closer look

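In mPGK-B, 5.03% of the well-read integrations were members, a value set apart from the other 5 pools, which lay between 3.18% and 3.66%. The SD of the RNA shift was highest in the same pool (0.49), and its RNA total differed most between cultures, with 2982538 reads in replicate 1 and 3508366 in replicate 2. The part of either in the share of members was not tested.

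The difference in barcode GC content between members and other well-read integrations was 1.80 percentage points in mPGK-A, apart from the other pools at 0.34 to 0.88. Sets of 6 pool values were examined in this way for 13 measures, and chance alone sets a pool apart in about 1 in 20 such sets.

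Integrations outside the rule also differed between cultures. On chromosome X, 11 of 286 integrations with at least 100 RNA reads differed by 1.5 or more (3.85%, Wilson interval 2.16% to 6.75%). Among the 3051 integrations of chromosomes 1 to 19 with fewer than 100 RNA reads, 1115 did (36.5%, 34.9% to 38.3%).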

How the results depend on the processing

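The number of members depended on threshold and depth. In place of 543 it was 1763 with a threshold of 1 log2 unit, 184 with 2 log2 units, 214 with at least 300 RNA reads and 343 without the 10% of integrations with the fewest DNA reads. It was 414 to 467 with each pool left out, and stayed within 1.5 times 543 under the other alternatives. The share of members with the larger RNA shift, 43.8%, was 39.7% with a pseudocount of 5 RNA reads, 13.6% with at least 300 RNA reads, 27.5% with at least 50 RNA reads in each culture and 55.7% without the lowest 10% of DNA counts, so the order of RNA and DNA turns in the last of these. It was 42.8% to 45.1% with each pool left out.

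No measure of the surroundings passed the adjusted threshold under any alternative, but the design could hardly reach it. With 6 pools the smallest exact permutation p is 0.03125. Adjustment over 5 measures then passes only if nearly all of them have that p. With 5 pools the smallest exact permutation p is 0.0625, so leaving out a pool says nothing about significance. With both sets limited to 100 to 500 RNA reads the difference reversed for the number of neighbours (0.064), their level (0.21) and their culture difference (-0.015), and the cause was not tested. With medians within pools the GC difference was -0.21 and that in the number of neighbours 0. Leaving out each pool gave -0.32 to -0.26 neighbours, -0.27 to -0.21 for their level, -0.0036 to 0.016 for their culture difference (turned without mPGK-A or mPGK-B), -1.92 to 0.86 percentage points for the plus strand (turned without mPGK-D or mPGK-E) and 0.70 to 0.99 for GC content.

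Members and others were compared within pools only for the tested measures of neighbours, strand and barcode GC content. Levels, depths, deciles, depth classes and the shares with isolated positions, nearby members or shared barcodes were taken over all pools together. Levels were relative to the pool median, but otherwise differences between pools were not removed from these values. No paired analysis was possible because, by replicate number, each difference is itself taken between the 2 cultures of a pool, so the number cannot also serve as a block. The table gives no counts per PCR.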
